A study of Mus musculus with 12 samples.

Results

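The 48 protein-coding genes whose symbol starts with Nduf in the GENCODE mouse annotation were described here, out of 54193 genes in the files, 21542 of which are protein-coding. By symbol, 40 of them are subunits (Ndufa, Ndufb, Ndufc, Ndufs and Ndufv) and 8 are assembly factors (Ndufaf). They were chosen by symbol, and no measured value entered the rule. Of the 48 genes, 47 reached the minimum for testing (an average normalized count of 10 across the 12 libraries) and entered the fit with 18017 genes in all, 39 of them subunits and 8 assembly factors. A normalized count is the number of reads estimated for a gene, scaled for the depth of its library, and it compares libraries for a given gene. The gene that was not tested, Ndufb11b, was at 0 in all 12 libraries. The symbols include 3 genes that are not complex I subunits, Ndufa4, which is now assigned to complex IV, its paralogue Ndufa4l2, and Ndufb11b, which leaves 37 nuclear complex I subunits.

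Complex I takes electrons from NADH and passes them through a flavin and a chain of iron-sulfur clusters to ubiquinone, and it pumps protons across the inner mitochondrial membrane. Its hydrophilic arm holds the N module, where NADH is oxidized, and the Q module, where ubiquinone is reduced, and its membrane arm holds the proximal and distal P modules, which pump. The core of the membrane arm is encoded by the mt-Nd genes of the mitochondrial genome, all other subunits are encoded in the nucleus, and the assembly factors build the modules without being part of the finished enzyme. Dopaminergic neurons of the substantia nigra are known to be vulnerable to inhibitors of complex I.

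RNA was sequenced from the laser-microdissected substantia nigra pars compacta of 1-week-old mice labelled as males, in 4 groups of 3 mice. These were SwissOF1 mice hemizygous for Engrailed-1 (OF1-En1+/-), wild-type SwissOF1 mice (OF1 WT), C57Bl/6j mice hemizygous for Engrailed-1 (C57-En1+/-) and wild-type C57Bl/6j mice (C57 WT). En1 encodes a homeodomain transcription factor of midbrain dopaminergic neurons, and its mutant allele is a null made by a LacZ insertion that is present in all cells. The C57-En1+/- line was derived from OF1-En1+/- mice by repeated backcrossing, so that OF1 sequence near En1 can remain in it, and the study asked how the strain changes the response of the nigra to the loss of 1 copy of En1. Each library came from 1 mouse, and in such bulk samples fewer cells of a type and less RNA per cell cannot be told apart.

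Libraries held between 13538864 and 168741283 estimated reads, with 61433970 or more in each C57 WT library and 37754338 or fewer in every other library. Depth thus went with the group in comparisons with C57 WT mice, and its part in the results was not tested. En1 did not follow the genotype labels, with a normalized count of 0 to 691 in OF1-En1+/-, 1.11 to 15.2 in OF1 WT, 0 to 9.41 in C57-En1+/- and 0.871 to 1071 in C57 WT mice, so it gave no check of them. Th, which encodes the enzyme that defines dopaminergic neurons, was at 85970 in the OF1-En1+/- mouse SW22 and 121800 in the C57 WT mouse C572S, and between 8.80 and 1447 in the other 10 mice, although all samples are labelled as substantia nigra. The C57-En1+/- mouse C572 had 1330 counts of Xist, against 0 to 34.9 in the other mice, and none of the Y-linked gene Ddx3y, against 749 to 2506, which goes against its label as a male. Medians over all members are also given with mice left out. Correlations, overlap counts, length classes and the medians of modules and other complexes are given with all mice only.

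The subunits had higher levels than the assembly factors in the median. In TPM, the share of transcripts of a library, which is a level per transcript length and allows genes to be compared, the median was 730 over the 39 subunits tested and 79.2 over the 8 assembly factors. The subunits with the highest levels were Ndufa4 (3112 TPM), the distal membrane arm subunit Ndufb8 (2137 TPM) and the Q module subunit Ndufa5 (1596 TPM), each as the mean of 12 libraries. The lowest were Ndufa4l2 (3.94 TPM), Ndufs1 (172 TPM), the large core subunit of the N module that carries several of the iron-sulfur clusters, and the distal subunit Ndufb4 (176 TPM). Among the assembly factors Ndufaf2 (148 TPM), which holds the place of Ndufa12 until late in assembly, Ndufaf5 (131 TPM), which modifies the core subunit Ndufs7, and Ndufaf3 (128 TPM), which acts on the Q module, were highest. Ndufaf6 (41.4 TPM), Ndufaf4 (47.7 TPM), the partner of Ndufaf3, and Ndufaf1 (59.7 TPM), which acts on the membrane arm, were lowest. Together the Nduf genes took up 0.753 to 1.47% of the estimated reads of a library.

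The promoters of the members are shown as a description of their sequence, and their part in the levels of the members was not tested. Promoters of 300 bases (250 before and 50 after the start) from the RefSeq table of build GRCm38.p6 were matched by symbol for 41 of the 48 genes, with 43 promoters. They were searched on both strands for exact matches to AAGATGGCG, which YY1 is known to bind, GCATGCGC, which NRF1 is known to bind, and CCGGAAG, a motif of ETS factors such as GABPA. The YY1 letters stood in 6 of the 43 promoters (14.0%) and in 1.4% of all 32851 promoters in the table. In all 6 they lay on the strand of the gene, between 11 and 36 bases after the start, and in 5 of them, all but Ndufaf8, they held the start codon. The 6 stretches follow, 5′ to 3′ on the strand of the gene, with the motif in capitals.
Ndufa9 (Q module, chr6:126849097-126849125, minus strand): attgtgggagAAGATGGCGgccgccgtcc
Ndufaf8 (assembly factor, chr11:120098934-120098962, plus strand): ggcagggcccAAGATGGCGgcgccctcga
Ndufc1 (proximal membrane arm, chr3:51408915-51408943, minus strand): cctgcggaacAAGATGGCGccgtccgtag
Ndufs4 (N module, chr13:114388045-114388069, minus strand): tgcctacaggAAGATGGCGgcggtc
Ndufs6 (N module, chr13:73328433-73328459, minus strand): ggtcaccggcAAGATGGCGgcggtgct
Ndufs7 (core, chr10:80249463-80249491, plus strand): ggccgaggccAAGATGGCGgcgctggcgg

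The NRF1 letters stood in 5 of the 43 promoters, those of Ndufa6, Ndufa8, Ndufa11, Ndufaf4 and Ndufaf5, and in 2.71% of all promoters. A match on each strand can overlap for these letters and was counted once per promoter. The ETS letters stood in 6 promoters, those of Ndufaf1, Ndufaf8, Ndufb6, Ndufb7, Ndufs3 and Ndufs8, and in 8.86% of all promoters. At least 1 of the 3 motifs was found in 16 of the 43 member promoters and in 12.1% of all promoters. The stretch of Ndufa8, whose match lies next to the start, and that of Ndufaf1 are given as examples, with the motif in capitals. A match describes these letters and does not show that a factor binds there.
Ndufa8, NRF1 letters (chr2:36049329-36049356, minus strand): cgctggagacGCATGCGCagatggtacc
Ndufaf1, ETS letters (chr2:119662836-119662862, minus strand): gggaccacaaCCGGAAGcgtggcgaac

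The 37 subunits of complex I moved largely as a block from mouse to mouse. Their mean log2 level was 13.09, 12.49 and 12.96 in the OF1-En1+/- mice SW21, SW22 and SWB, and 12.91, 13.11 and 13.12 in the OF1 WT mice SW31, SW7 and SWG. It was 13.20, 13.45 and 12.75 in the C57-En1+/- mice C5713, C572 and C575, against 12.43, 12.44 and 12.79 in the C57 WT mice C5710, C572S and C5743. The highest library was thus C572 and the lowest was C5710, and the genotype groups overlapped in both strains. The mean of the 8 assembly factors was 10.73, 10.37 and 10.70 in OF1-En1+/- and 10.68, 10.54 and 10.71 in OF1 WT mice, and 10.84, 11.05 and 10.39 in C57-En1+/- and 10.41, 10.43 and 10.76 in C57 WT mice. C572 was the highest library for them as well, and SW22 was the lowest.

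**Figure D1:**
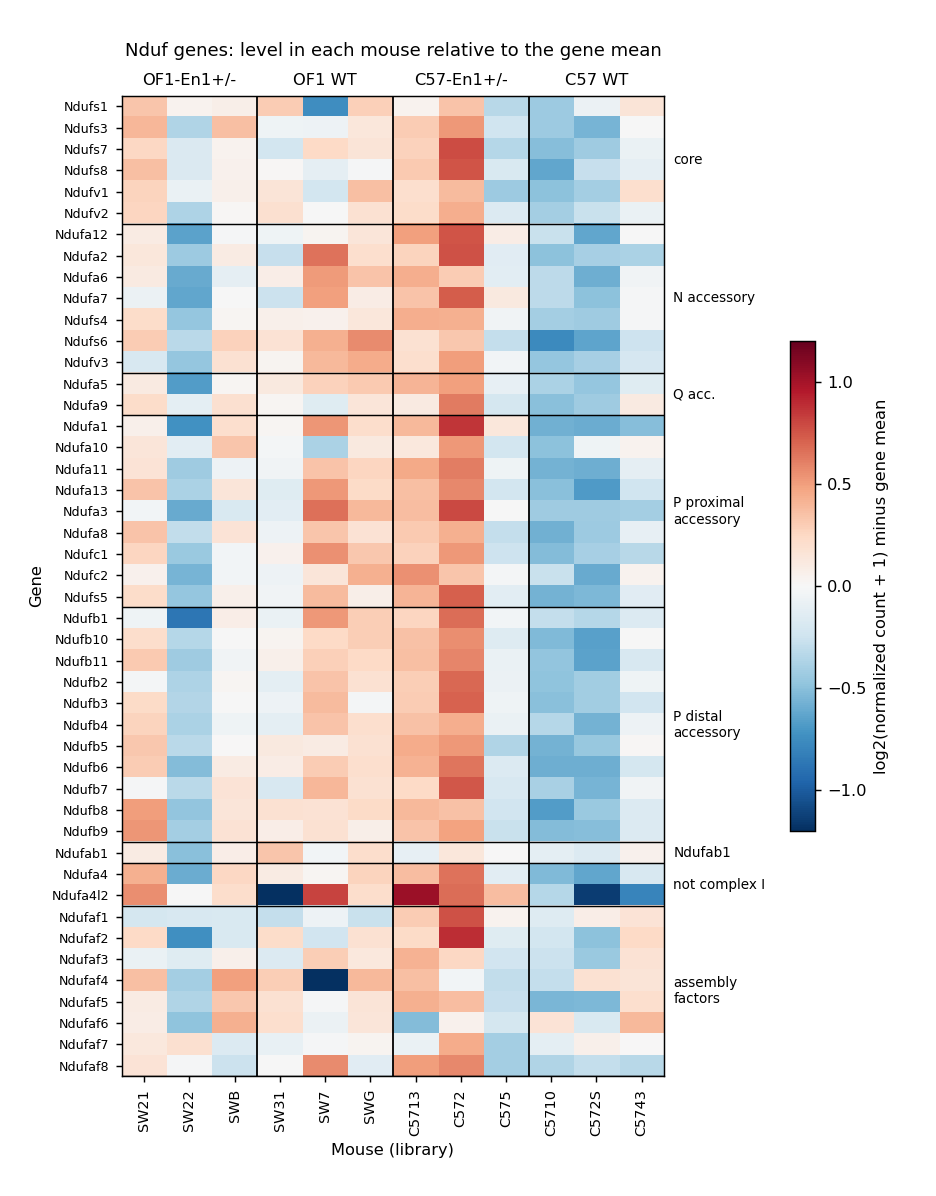
Level of 46 of the 47 tested Nduf genes (down, grouped by module) in each of the 12 mice (across, by group), as log2(normalized count + 1) minus the mean of that gene, with a colour scale limited to 1.2 on either side of 0. Columns are coloured mostly alike over the subunits, with the mice C572 and C5713 above the gene means and SW22, C5710 and C572S below them.

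Across the 12 libraries, which share their depth and their tissue piece between all genes, the median Pearson r between pairs of subunits was 0.84 (666 pairs), with 91.0% of pairs over 0.5. It was 0.34 between pairs of assembly factors (28 pairs) and 0.54 between a subunit and an assembly factor (296 pairs). The most alike pair was Ndufb11 and Ndufb6, both of the distal membrane arm, with r = 0.985, and the least alike was Ndufaf6 and Ndufa4l2, with r = -0.347. With the mean of the other subunits, Ndufb6 had the highest r (0.99), and Ndufaf6 (0.12), Ndufaf4 (0.16), Ndufaf7 (0.32) and Ndufs1 (0.33) had the lowest. The mean of the complex I subunits also followed that of the nuclear genes of the other complexes of the respiratory chain, with r of 0.93 for complex III, 0.98 for complex IV and 0.99 for complex V, and followed the mt-Nd genes less closely (r = 0.55). With the list of 11 regulators of mitochondrial genes, such as Ppargc1a, Nrf1 and Tfam, r was -0.15. These correlations are descriptions over 12 libraries.

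**Figure D2:**
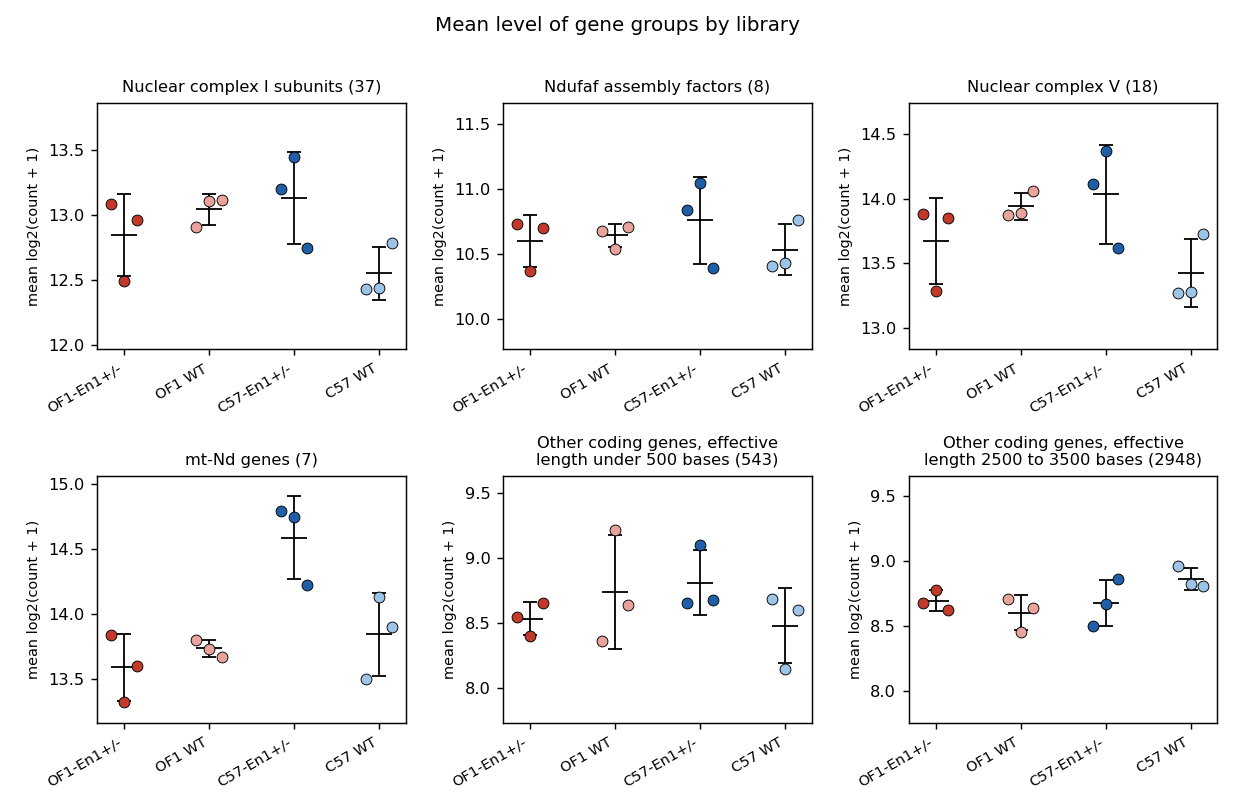
Mean log2(normalized count + 1) of 6 groups of genes in each mouse (points), with the mean and SD of each group of 3 mice. The nuclear complex I and complex V genes show nearly the same order of mice, the mt-Nd genes are highest in C57-En1+/- mice, and other coding genes with short transcripts vary in part like the subunits.

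Within the C57 strain, 46 of the 47 members had estimates above 0, that is, higher with the En1 mutation (46.2% of all genes tested did so), but no member passed the test. The median log2 fold change was 0.61 over the members and -0.05 over all genes. At an unadjusted p under 0.05 in the quasi-likelihood test of edgeR, 31 members were higher and 0 lower in C57-En1+/- mice, where 4.15% of all genes were higher and 4.42% lower. Not 1 of them passed the adjusted threshold of 0.05 (0.0% of all genes did), and the smallest Benjamini-Hochberg adjusted p of a member was 0.55. DESeq2, used as an alternative, called 1 member, Ndufa1, where it called 0.416% of the genes it tested. For 17 members every C57-En1+/- mouse was above every C57 WT mouse, which was so for 6.2% of all genes.

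All 39 subunits had estimates above 0 in this comparison, with a median of 0.63, and the 31 genes with p under 0.05 were all subunits. The median was 0.43 over the 7 core subunits, 0.63 over the 7 accessory subunits of the N module, 0.54 over the 2 of the Q module, 0.74 over the 9 of the proximal and 0.63 over the 11 of the distal membrane arm. At an unadjusted p under 0.05, 2 of the core subunits were higher, and 7, 1, 8 and 11 of the accessory subunits in the same order. The 8 assembly factors had a median of 0.35, with 7 above 0 and none at an unadjusted p under 0.05. The acyl carrier Ndufab1, which binds LYR motif subunits in both arms, had 0.09 ± 0.188 (log2 fold change and its standard error, as below).

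Ndufa1, a small subunit of the proximal membrane arm encoded on the X chromosome (ENSMUSG00000016427, chrX:36451241-36454849, minus strand, GRCm39), had the smallest p of the members. Its normalized count was 6893, 9519 and 5763 in C57-En1+/- mice, against 3517, 3480 and 3703 in C57 WT mice. All 3 C57-En1+/- mice were above all 3 C57 WT mice. The estimate on the log2 scale was 1.05 ± 0.258, with an unadjusted p of 0.00155 and an adjusted p of 0.55 with edgeR, and 1.11 with an adjusted p of 0.0284 with DESeq2. The DESeq2 call was lost without any of the mice C5713, C572, C5710, C572S, C5743 and SWG, at an adjusted p of up to 0.339 without C572, and it was also lost with the trend on transcript length removed (DESeq2 adjusted p = 0.183).

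Ndufa3, another small subunit of the proximal arm (ENSMUSG00000035674, chr7:3620342-3623326, plus strand, GRCm39), had 6226, 8331 and 4804 counts in C57-En1+/- mice, against 3584, 3579 and 3627 in C57 WT mice. The groups did not overlap, and the wild-type mice differed little among themselves. The fold change was 0.84 ± 0.248 with an edgeR adjusted p of 0.55 and a DESeq2 adjusted p of 0.11. Ndufa11, a membrane subunit of the proximal arm, had 13972, 15661 and 9873 counts in C57-En1+/- mice, against 6911, 6812 and 9507 in C57 WT mice. Here too the groups did not overlap, although the lowest C57-En1+/- mouse and the highest C57 WT mouse lay close together, and the fold change was 0.77 ± 0.23.

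The core subunits and the assembly factors had the smaller estimates. Ndufs8, a core subunit with 2 iron-sulfur clusters in the Q module, had 11072, 14971 and 7836 counts in C57-En1+/- mice, against 5788, 7322 and 8271 in C57 WT mice. The lowest C57-En1+/- mouse, C575, was below the highest C57 WT mouse, and the fold change was 0.66 ± 0.238. Ndufs7, the core subunit with the last cluster before ubiquinone, had 0.64 ± 0.262, and these 2 were the core subunits with an unadjusted p under 0.05. Ndufv1, which binds NADH and the flavin, had 14386, 16279 and 9246 counts in C57-En1+/- mice, against 8868, 9414 and 14417 in C57 WT mice, with overlap and a fold change of 0.29 ± 0.257. Ndufs1 had 0.14 ± 0.279. Among the assembly factors Ndufaf8, a partner of Ndufaf5, had the highest estimate (0.61 ± 0.293) and Ndufaf6 the lowest, the 1 member below 0 (-0.35 ± 0.271). Ndufaf6 had 481, 714 and 595 counts in C57-En1+/- mice, against 774, 606 and 906 in C57 WT mice, and these groups overlapped, as did those of all 8 assembly factors.

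Ndufa4, a subunit of complex IV, had 25512, 31079 and 18066 counts in C57-En1+/- mice, against 13675, 12804 and 17315 in C57 WT mice. The groups did not overlap, and the fold change was 0.77 ± 0.27. Ndufa4l2, the paralogue of Ndufa4 known from hypoxic cells, had 120, 93.0 and 75.5 counts in C57-En1+/- mice, against 45.7, 26.0 and 33.1 in C57 WT mice, the highest estimate of all members at 1.46 ± 0.619, and did not pass with edgeR (adjusted p = 0.568).

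The counts of members depended on single mice, and their direction did not. Without C572, the mouse whose sex genes go against its label, 44 members stayed above 0 and 9 had an unadjusted p under 0.05, with a median of 0.47. Without C575, the lowest C57-En1+/- mouse, 39 had an unadjusted p under 0.05, the median was 0.78, and DESeq2 called 26 members in place of 1, where it called 3.07% of all genes in that fit. Without C5710 or without C572S 15 had such a p. Without SW22 and C572S together, the mice with high Th, the number was 19 and the median 0.55. The share of all genes with such a p was not computed for these fits. Markers of other cell types also varied between the C57 mice, and most lists overlapped between the genotype groups. The summed level of 6 oligodendrocyte markers was 21180, 196000 and 10700 in C57-En1+/- mice, against 15020, 34290 and 12960 in C57 WT mice, with all 6 estimates above 0, and that of 7 neuronal markers was 305500, 605100 and 306100 in C57-En1+/- mice, against 231900, 312300 and 338500 in C57 WT mice, with 5 above 0. The 7 dopaminergic markers summed to 1003 to 8285 in C57-En1+/- mice, against 3159 to 620900 in C57 WT mice. Both the oligodendrocyte and the neuronal markers were highest in C572, the mouse with the highest members. Of 12 marker lists, 2 had sums that did not overlap between these groups. The 3 red blood cell markers summed to 11420 to 22140 in C57-En1+/- mice, against 5732 to 7044 in C57 WT mice, with all 3 estimates above 0, and the 6 mural cell and fibroblast markers to 2497 to 4568 in C57-En1+/- mice, against 1543 to 2445 in C57 WT mice, with 5 above 0. The part of these markers in the result was not tested.

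In the OF1 strain the estimates lay on the other side of 0 and were smaller. Of the 47 members 10 were above 0 in OF1-En1+/- over OF1 WT mice (48.6% of all genes), with a median of -0.16 against -0.02 over all genes. No member passed with edgeR (0.0% of all genes) or with DESeq2 (1.18%), and 1 member, Ndufa3, was lower at an unadjusted p under 0.05, where 4.57% of all genes were lower. The smallest edgeR adjusted p of a member was 0.522. The median was -0.02 over the core subunits, -0.29 over the N module, -0.28 over the proximal and -0.19 over the distal accessory subunits, and -0.05 over the assembly factors. Without SW22 the median of the members was -0.00 and 23 were above 0, so that the shift of the median rested on this mouse. The 7 dopaminergic markers summed to 390600 in SW22, and to between 1177 and 5223 in the other 5 OF1 mice, and the 6 subthalamic and hypothalamic markers to 665 to 2476 in OF1-En1+/- mice, against 9007 to 54780 in OF1 WT mice, with all 6 estimates below 0. The sums of 2 other lists did not overlap. The 6 oligodendrocyte markers summed to 54450 to 112800 in OF1-En1+/- mice, against 20450 to 42100 in OF1 WT mice, and the 6 markers of proliferating cells to 3109 to 3632 in OF1-En1+/- mice, against 2136 to 2829 in OF1 WT mice, with all estimates of both lists above 0. Their part in the values of the members was not tested.

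Ndufa3 had 4690, 3165 and 4233 counts in OF1-En1+/- mice, against 4405, 7601 and 6311 in OF1 WT mice. The highest OF1-En1+/- mouse was above the lowest OF1 WT mouse, and the fold change was -0.60 ± 0.247 with an edgeR adjusted p of 0.522. Ndufa6, a LYR motif subunit of the N module, had -0.50 ± 0.232, and Ndufv3, a small N module subunit beside the NADH-binding core, had -0.44 ± 0.21. Ndufa5 was the 1 member whose OF1 groups did not overlap (8.04% of all genes were lower without overlap). It had 8148, 4746 and 7682 counts in OF1-En1+/- mice, against 8193, 9159 and 9416 in OF1 WT mice, and 10050, 10650 and 7075 counts in C57-En1+/- mice, against 5823, 5462 and 6812 in C57 WT mice. It was thus lower in every OF1-En1+/- mouse and higher in every C57-En1+/- mouse, as were 0.233% of all genes, with fold changes of -0.38 ± 0.225 in OF1 and 0.62 ± 0.226 in C57 mice.

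**Figure D3:**
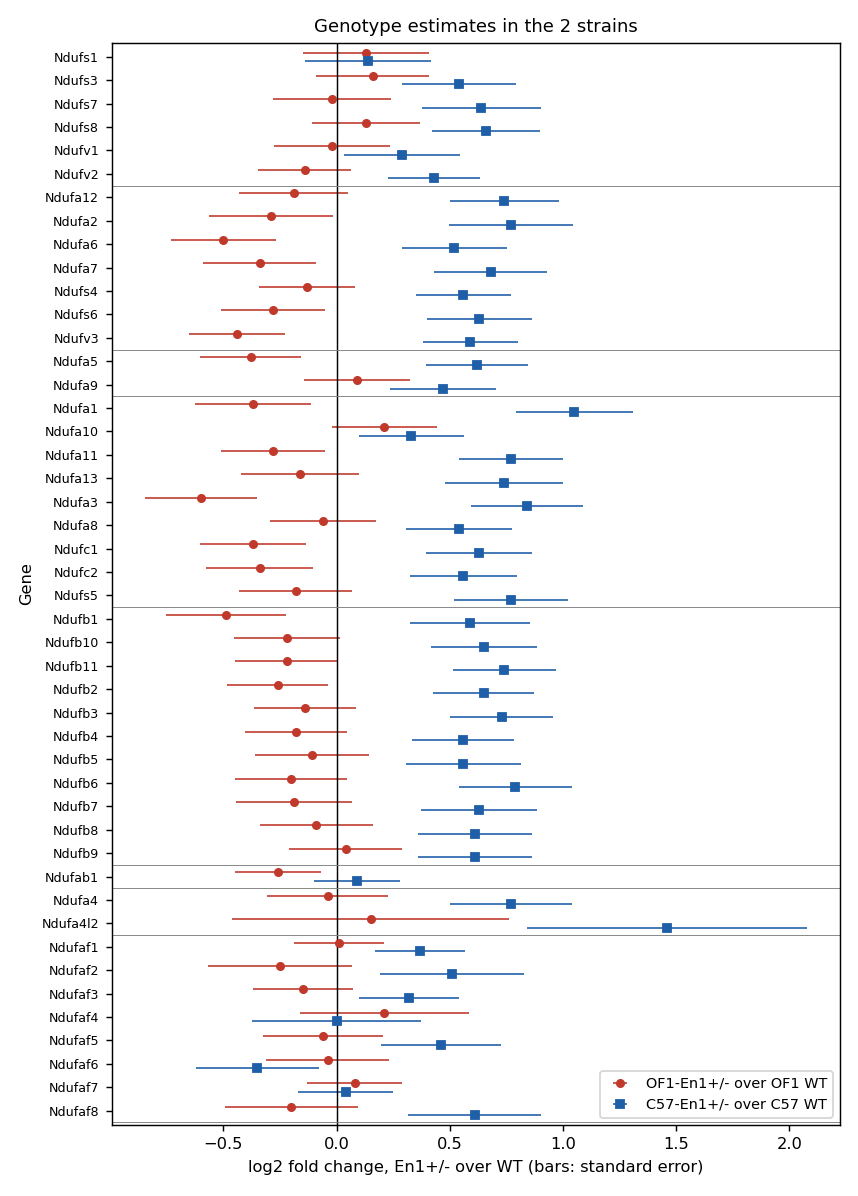
Estimated log2 fold change of En1+/- over WT mice for 46 of the 47 tested Nduf genes, in OF1 mice (circles) and C57 mice (squares), with standard errors from edgeR. In C57 mice 1 of the estimates drawn lies below 0, and in OF1 mice 10 lie above 0.

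The difference between the genotype effects (C57 minus OF1, the interaction) had a median of 0.81 over the members and -0.04 over all genes. It was above 0 for 44 members (47.5% of all genes), and 23 had an unadjusted p under 0.05 in that direction, where 3.81% of all genes did. The smallest edgeR adjusted p was 0.691 and no gene was called (0.0%). DESeq2 called 1 member, Ndufa3 (0.236% of the genes it tested), at 1.49 with an adjusted p of 0.049, and edgeR gave 1.44 ± 0.35 with an unadjusted p of 0.00141. This call was kept in 3 of 12 DESeq2 fits that each left out a mouse (without C575, SW21 or SW31) and was lost in the others, at an adjusted p of up to 0.207 without SWG. It was also lost with the trend on transcript length removed (DESeq2 adjusted p = 0.538). Ndufa1 had 1.42 ± 0.363 and Ndufv3 1.02 ± 0.297, and the median was 0.87 over the subunits and 0.42 over the assembly factors. The median of the members was 0.60 without SW22, and 0.52, with 6 genes at an unadjusted p under 0.05, without SW22 and C572S together. In that fit the share of all genes at this p was not computed.

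Averaged over the strains, En1+/- mice had a median of 0.20 over the members, with 45 above 0 (47.9% of all genes). The core subunit Ndufs8 had the smallest p, with 0.40 ± 0.168 and an edgeR adjusted p of 0.403, followed by the core subunit Ndufs3 (0.35 ± 0.177) and by Ndufa4 (0.36 ± 0.19). No member was called by edgeR (0.0% of all genes) or by DESeq2 (1.4%). At an unadjusted p under 0.05, 1 member was higher (4.7% of all genes).

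Between the strains, OF1 WT mice had higher estimates than C57 WT mice for 43 of the 47 members (45.2% of all genes), with a median of 0.46 against -0.05 over all genes. At an unadjusted p under 0.05, 17 members were higher (3.85% of all genes) and 0 lower (4.78%). No member passed with edgeR, where 1.03% of all genes did, and 1 member, Ndufs6, passed with DESeq2, where 2.56% did. For 24 members every OF1 WT mouse was above every C57 WT mouse (6.21% of all genes). The median was 0.50 over the subunits, all 39 of which were above 0, and 0.10 over the assembly factors, 4 of which were. C57 WT mice take part in both this comparison and the genotype comparison in C57, so the values in these mice enter both. The number with an unadjusted p under 0.05 was 5 without C572S, 6 without C5710 and 6 without SW7. No share of all genes at this p was computed for these fits. Of the 12 marker lists, 3 had sums that did not overlap between these groups, all lower in OF1 WT mice. The 7 dopaminergic markers summed to 1177 to 2864 in OF1 WT mice, against 3159 to 620900 in C57 WT mice, the 6 markers of proliferating cells to 2136 to 2829 in OF1 WT mice, against 2954 to 4000 in C57 WT mice, and the 6 astrocyte markers to 24530 to 29420 in OF1 WT mice, against 30840 to 36580 in C57 WT mice. Their part in the values of the members was not tested.

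Ndufs6, a zinc-binding subunit of the N module that acts late in assembly (ENSMUSG00000021606, chr13:73464968-73476661, minus strand, GRCm39), had 6947, 8279 and 9158 counts in OF1 WT mice, against 3637, 3991 and 5205 in C57 WT mice. Every OF1 WT mouse was above every C57 WT mouse, with a fold change of 0.93 ± 0.233, an edgeR adjusted p of 0.119 and a DESeq2 adjusted p of 0.0054. The DESeq2 call was lost without C5710, C572S or SWG, at an adjusted p of up to 0.0952, and it was also lost with the trend on transcript length removed (DESeq2 adjusted p = 0.0775). In En1+/- mice the counts of Ndufs6 were 7632, 4927 and 7462 in OF1 and 7014, 7727 and 5061 in C57 mice, so that these groups overlapped. Ndufa1 had 0.83 ± 0.257 and Ndufc1, a small subunit of the proximal arm, 0.74 ± 0.234 in OF1 WT over C57 WT mice, and neither was called by edgeR or DESeq2.

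Among En1+/- mice the estimates were mostly below 0. Of the members 6 were above 0 in OF1-En1+/- over C57-En1+/- mice (48.3% of all genes), the median was -0.28 against -0.02 over all genes, and 5 were lower at an unadjusted p under 0.05 (4.26% of all genes). None was called by edgeR (0.927%) or by DESeq2 (2.49%). The assembly factor Ndufaf1 had the smallest p. It had 1430, 1449 and 1465 counts in OF1-En1+/- mice, against 2047, 2816 and 1711 in C57-En1+/- mice, with a fold change of -0.60 ± 0.2 at an edgeR adjusted p of 0.374. It was 1 of 3 members, with Ndufa3 and Ndufa7, whose groups did not overlap (6.75% of all genes were lower without overlap). Ndufa3 had -0.68 ± 0.247, and Ndufa12, an N module subunit, -0.62 ± 0.24. Without C575 the median was -0.48 and 16 members had an unadjusted p under 0.05, without C572 the median was -0.14 and 0 had, and without SW22 the median was -0.16 and 1 had. For these fits the share of all genes at this p was not computed.

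Averaged over the genotypes, the strain estimates had a median of 0.09, with 40 members above 0 (44.0% of all genes). This average joins medians on opposite sides of 0, at 0.46 in WT mice and -0.28 in En1+/- mice. Ndufaf1 was lower in OF1 mice, at -0.42 ± 0.141 with an edgeR adjusted p of 0.272, and Ndufs6 higher, at 0.47 ± 0.164 with an edgeR adjusted p of 0.3. The distal subunit Ndufb8 had 0.26 ± 0.177. No member was called by edgeR (2.0% of all genes) or DESeq2 (3.67%), and 1 was higher (3.92% of all genes) and 1 lower (4.76%) at an unadjusted p under 0.05. Without C575 the median was -0.01 and 23 members were above 0.

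The members have short transcripts, and other genes with short transcripts moved in the same direction. The effective length, the part of a transcript from which fragments can come, had a median of 405.5 bases over the members and 2304 bases over the other protein-coding genes tested. For C57-En1+/- over C57 WT mice, the median log2 fold change of the other coding genes under 500 bases was 0.48 (543 genes), and that of the 28 members of this length was 0.63. From 500 to 800 bases these medians were 0.27 and 0.54 (9 members), and from 800 to 1200 bases they were 0.12 and 0.41 (6 members). The other coding genes of 2500 to 3500 bases had -0.18. The difference of a member from the median of its length class had a median of 0.21 in this comparison, 0.02 for OF1-En1+/- over OF1 WT, 0.14 for OF1 WT over C57 WT, -0.04 for OF1-En1+/- over C57-En1+/- mice and 0.19 for the interaction.

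With the trend on transcript length removed from each library, the median of the members was 0.25 in C57-En1+/- over C57 WT mice and 4 had an unadjusted p under 0.05, the median was 0.20 with 3 such genes in OF1 WT over C57 WT mice, and 0.24 with 4 for the interaction. Ndufa1 then had 0.48 ± 0.163 in C57-En1+/- over C57 WT mice. How many of all genes had an unadjusted p under 0.05 in this fit was not computed. This trend also takes up any difference that short genes share for other reasons, and the part of transcript length in the results was not tested. The mean fragment length was 267.0 to 326.6 bases over the libraries. With the mean of other coding genes under 500 bases, the mean of the complex I subunits had r = 0.63 over the 12 libraries, and with that of 2500 to 3500 bases r = -0.75.

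**Figure D4:**
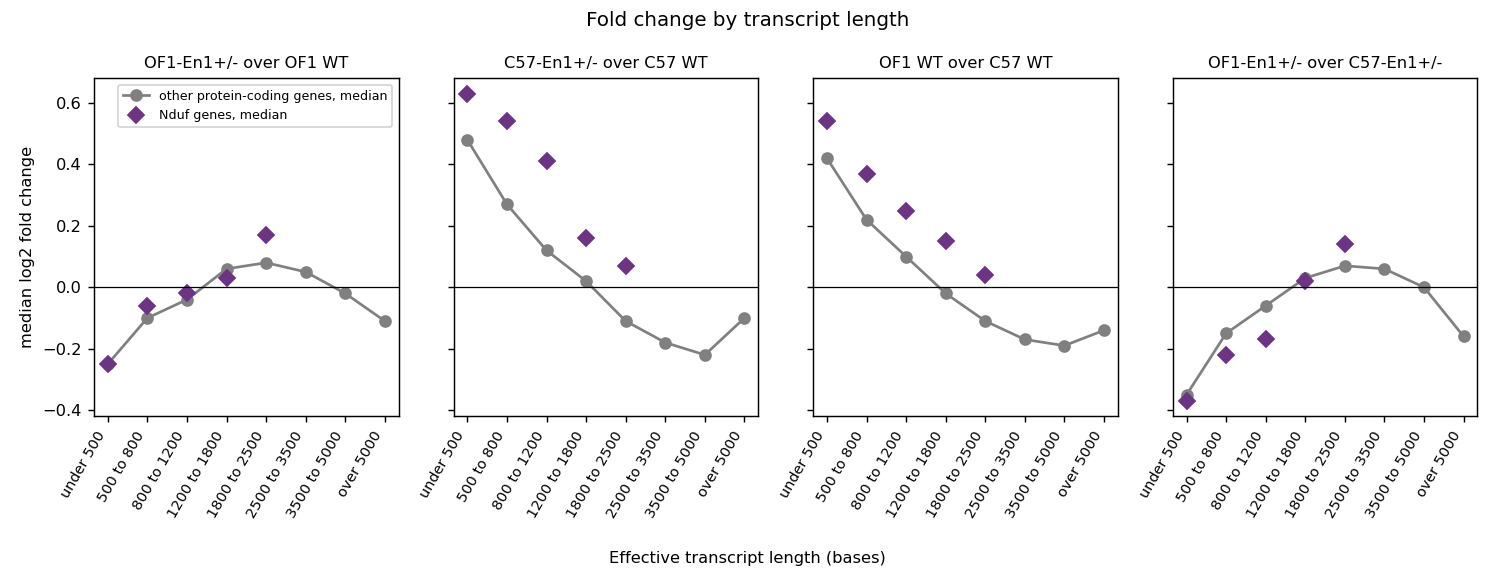
Median log2 fold change by class of effective transcript length (bases, 8 classes) in 4 comparisons, for other protein-coding genes (grey line) and for Nduf genes (diamonds). In C57-En1+/- over C57 WT mice the grey line runs from 0.48 under 500 bases to -0.22 between 3500 and 5000 bases, with the Nduf genes above it at each length they occupy.

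The nuclear genes of the other complexes had values close to those of complex I. For C57-En1+/- over C57 WT mice the median was 0.64 over the 9 genes of complex III, 0.78 over the 10 of complex IV and 0.68 over the 18 of complex V, with 5, 9 and 12 of them higher at an unadjusted p under 0.05. For OF1-En1+/- over OF1 WT mice these medians were -0.23, -0.23 and -0.22, and for OF1 WT over C57 WT mice they were 0.58, 0.66 and 0.53. The 8 genes of complex II, subunits and assembly factors, had 0.30 in C57-En1+/- over C57 WT mice, and the 11 regulators had 0.06. No gene of these lists was called by edgeR in the genotype comparisons.

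All 7 mt-Nd genes, which encode the core of the membrane arm, had estimates below 0 in OF1-En1+/- over C57-En1+/- mice (48.3% of all genes were above 0). All 7 were lower at an unadjusted p under 0.05 with edgeR (4.26% of all genes). For 6 of them the groups did not overlap (6.75% of all genes were lower without overlap). Their median was -1.07 in this comparison, where edgeR called 3 of 7 (0.927% of all genes) and DESeq2 5 (2.49%). mt-Nd1, which borders the ubiquinone site, had 60902, 43943 and 53860 counts in OF1-En1+/- mice, against 124180, 126690 and 102010 in C57-En1+/- mice. All OF1-En1+/- mice were below all C57-En1+/- mice, and mt-Nd1 fell by 1.15 on the log2 scale (SE 0.211, edgeR adjusted p = 0.0216). In WT mice it had 64800, 60733 and 62093 counts in OF1 and 53562, 92408 and 75809 in C57 mice, with overlap. mt-Nd4l and mt-Nd6, subunits of the pumping arm, fell by 1.17 (edgeR adjusted p = 0.047) and by 1.10 (edgeR adjusted p = 0.0482). The mt-Nd1 call was lost without SW22, SWB, C5713 or C572, and in 3 other alternatives, at an edgeR adjusted p of up to 0.104. The edgeR calls of mt-Nd4l and mt-Nd6 were each lost in 9 of the 12 fits that left out a mouse. They were kept without C5710, C572S or C575. In the 12 DESeq2 fits that each left out a mouse, mt-Nd1, mt-Nd4l and mt-Nd6 were called in all 12. Their highest DESeq2 adjusted p was 0.00228, 0.0239 and 0.0312. DESeq2 called mt-Nd2 in 9 and mt-Nd4 in 8 of these 12 fits. Averaged over the genotypes edgeR called 2 of the 7 (2.0% of all genes) and DESeq2 3 (3.67%). The edgeR calls were mt-Nd1 and mt-Nd4l, lower in OF1 mice (-0.70, edgeR adjusted p = 0.0294, and -0.84, edgeR adjusted p = 0.0234). They were lost in 11 and 9 of 25 alternatives. Both were lost without SW22 and C572S together, where the edgeR adjusted p was highest (0.185 for mt-Nd1 and 0.145 for mt-Nd4l). Leaving out a single mouse, the edgeR call of mt-Nd1 was kept without SW21, C5710 or C575 and lost in the other 9 fits. That of mt-Nd4l was lost without SW31, SWG, SW22, SWB, C572S or C5743. DESeq2 kept both genes in all 12 of its fits without a mouse, at an adjusted p of up to 0.00838 and 0.00896. It called mt-Nd6 in 2 of these 12 fits. In C57-En1+/- over C57 WT mice the mt-Nd genes had a median of 0.73 and none was called by edgeR or DESeq2. The whole mitochondrial genome took up 2.33 to 5.50% of reads.

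Of 13 assembly factors of complex I without a Nduf symbol, 12 were tested. Averaged over the genotypes, edgeR called 2 of them between the strains, where it called 2.0% of all genes. It called none of the 8 Ndufaf genes, which does not set them apart at this share. DESeq2 called Ndufaf1 between the strains with the length trend removed (adjusted p = 0.0457) and without C575 (adjusted p = 0.0352), and not with all mice and no trend removed. Timmdc1, which holds membrane arm intermediates together, had 1271, 784 and 1053 counts in OF1-En1+/- mice and 394, 1043 and 1548 in OF1 WT mice, against 404, 421 and 206 in C57-En1+/- mice and 211, 156 and 237 in C57 WT mice. All OF1 mice but SW31 were above all C57 mice. Averaged over the genotypes it rose by 1.95 on the log2 scale in OF1 mice (SE 0.319, edgeR adjusted p = 0.00498). Sfxn4, a sideroflexin needed for complex I assembly, had 1574, 1398 and 959 counts in OF1-En1+/- mice and 849, 1129 and 1109 in OF1 WT mice, against 348, 791 and 426 in C57-En1+/- mice and 320, 465 and 448 in C57 WT mice. Every OF1 mouse was above every C57 mouse, and it rose by 1.33 (SE 0.23, edgeR adjusted p = 0.00743). Both strain calls were kept in all 25 alternatives that could be fitted, with an adjusted p of up to 0.0293 for Timmdc1 and 0.0451 for Sfxn4. The 12 factors together had a median of 0.20 in C57-En1+/- over C57 WT mice.

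Reads of some members can be split with near-identical copies. Of 24 members 46 pseudogene copies matched at least 50% of the coding sequence at 85% identity or more, and 4 of these copies passed the minimum, the other 42 having a mean normalized count under 5. Ndufa12-ps (chr5:130217236-130217637, plus strand, GRCm39) is 99.5% identical to the coding sequence of Ndufa12 over 399 of its 435 bases. It had a mean of 1798 ± 550 counts in OF1-En1+/- and 2412 ± 359 in OF1 WT mice (SD, n = 3 each), against 2.74 ± 2.47 in C57-En1+/- and 0.343 ± 0.594 in C57 WT mice. Every OF1 mouse was above every C57 mouse, at 1163 to 2701 against 0 to 4.79. More reads were assigned to the copy in OF1 mice, with an edgeR adjusted p of 1.41e-07. The reference transcripts come from the C57 strain, and the part of sequence differences of OF1 mice in these reads was not tested. The copy held up to 25.0% of the reads of Ndufa12 and its copy together. The 2 differing positions, A135G and T414C, counted from the first base of the Ndufa12 start codon, are the only differences within the aligned stretch, which starts at position 37, and are shown with the differing base in capitals.
Ndufa12 at 135: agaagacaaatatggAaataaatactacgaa
Ndufa12-ps at 135: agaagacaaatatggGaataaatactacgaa
Ndufa12 at 414: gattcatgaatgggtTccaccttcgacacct
Ndufa12-ps at 414: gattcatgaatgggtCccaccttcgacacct

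The value of Ndufa12 depended on this split. With the reads of the copy added to it, the fold change of Ndufa12 was 0.72 in place of 0.32 in OF1 WT over C57 WT mice, and -0.27 in place of -0.62 in OF1-En1+/- over C57-En1+/- mice. Ndufs6b (chr7:80811145-80811492, minus strand, GRCm39), which differs from the coding sequence of Ndufs6 at 12 positions (96.5% identity), had 23.3 to 82.2 counts in OF1 mice, against 0 to 4.79 in C57 mice, with an edgeR adjusted p of 0.0086 for the strain. It held at most 0.889% of the reads of Ndufs6 and its copy together. The part of sequence differences of OF1 mice in the reads assigned to Ndufs6b was not tested either. Gm4459, 99.8% identical to Ndufab1 with the single difference G137A, held 4.80 to 9.21% of the shared reads. Ndufb4c, identical to the coding sequence of Ndufb4, held 34.2 to 44.8%, so the values of Ndufb4 and Ndufb4c are uncertain.

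**Figure D5:**
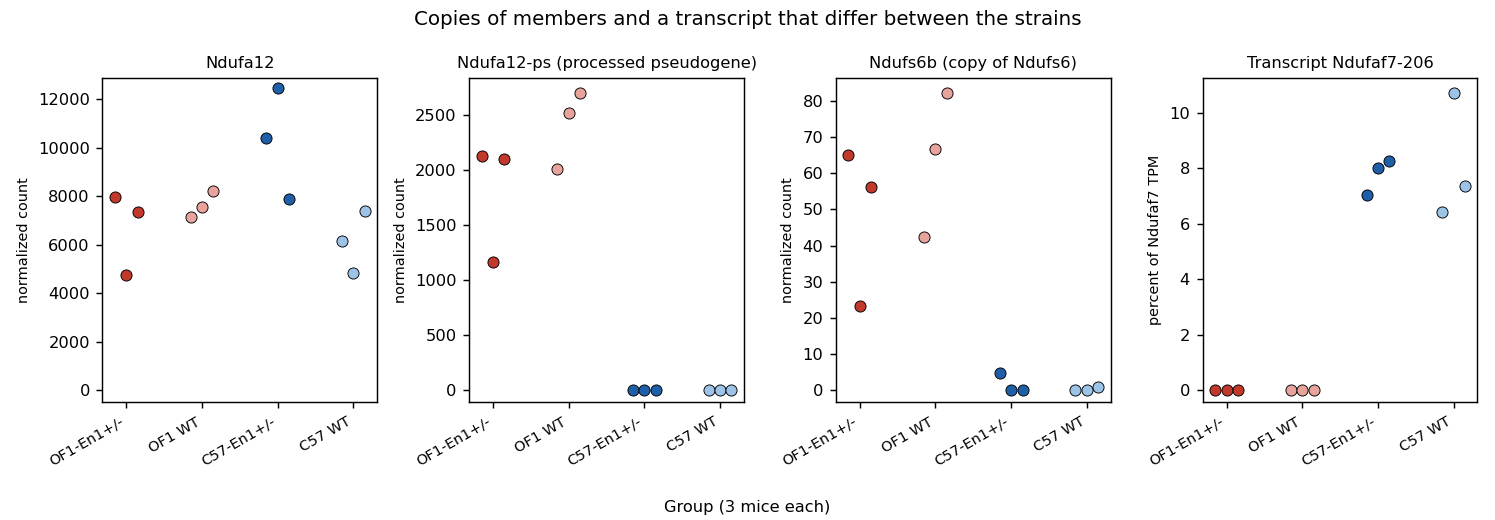
Normalized counts of Ndufa12, Ndufa12-ps and Ndufs6b, and the percent of Ndufaf7 TPM in the transcript Ndufaf7-206, in each of the 12 mice (points) by group. Both copies lie at 0 to 4.79 in C57 mice and above 23 in OF1 mice, and Ndufaf7-206 is at 0 in OF1 mice and between 6.43 and 10.7% in C57 mice.

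Transcript usage separated the strains for few members. Of 96 transcripts that held at least 3% of the TPM of a tested member, 4 (4.17%) had no overlap between the 6 OF1 and the 6 C57 mice, as did 1.15% of the 39142 such transcripts of all genes tested. Between OF1-En1+/- and OF1 WT mice 14 of the 96 had no overlap (14.6%, against 8.14% of all such transcripts), and between C57-En1+/- and C57 WT mice 15 (15.6%, against 10.7%). Transcripts of 1 gene share its total, so their shares are not independent. Ndufaf7-206, a coding transcript of an assembly factor, had 0 reads in all 6 OF1 mice, and 50 to 404 reads in C57 mice, where it held 6.43 to 10.7% of Ndufaf7. Ndufaf7-203 held 5.80 to 13.9% of Ndufaf7 in OF1 mice, against 1.56 to 3.16% in C57 mice. Ndufa12-204 held 98.0 to 99.0% of Ndufa12 in OF1 mice, against 96.5 to 97.8% in C57 mice. Ndufv3-202 held 98.1 to 99.4% of Ndufv3 in OF1 mice, against 90.9 to 97.9% in C57 mice. The reference transcripts come from the C57BL/6J genome, and the part of sequence differences of OF1 mice in these shares was not tested. For 21 members the most abundant transcript held over 90% of TPM, and for 7 members it was not annotated as protein-coding, among them Ndufa3 (Ndufa3-204, 78.8% of TPM) and Ndufs4 (Ndufs4-202, 52.2%), both annotated as targets of nonsense-mediated decay.

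The library kit did not record strand, and 25 members share exon bases with a tested gene on the opposite strand, so that reads there cannot be told apart. Ndufa3 shares 689 bases with Tfpt, and Ndufa6 overlaps Smdt1 and Ndufs1 overlaps Eef1b2. Ndufa13 shares 15 bases with Yjefn3 on the same strand.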

How the data were processed

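RNA of 12 mice was measured. The authors quantified transcripts of the mouse genome GRCm39 with Salmon, per the submitters' processing notes. The deposited values are an estimated count of reads per transcript, its TPM as the authors' tool scaled it within a library, and an effective length in bases. Transcripts were matched by ID to GENCODE vM39 (139555 of 140790, or 99.1%; the others held 0.604 to 0.734% of reads). Their estimated counts were added up by gene and rounded. The test was run on genes averaging 10 or more normalized counts, in edgeR 4.0.16 (R 4.3.3, TMM factors, robust quasi-likelihood test, 1 mean per group on all 12 libraries, Benjamini-Hochberg over all 18017 genes, threshold 0.05). Tables were made with Python 3.11.15 and pandas 2.3.3, and copies were found with blastn 2.17.0.

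Alternatives were DESeq2 1.42.0, relative log expression factors, no filter or a filter within groups, transcript length offsets, fits on the compared groups alone, depth counted without the mitochondrial genome, limma 3.58.1 voom with quality weights, coding genes only, reads of copies added, SW22 and C572S left out, and each library left out in turn. A length trend removed per library (loess, span 0.3), with edgeR and DESeq2, the reads of all aligned copies, DESeq2 without each library, and the shares over all genes and transcripts beside overlap counts were added after seeing the data. The members and lists were chosen with earlier results of these data known. Named genes are members called by either tool, the 3 with the smallest p of each comparison, the 3 highest and lowest in TPM among subunits and assembly factors, the member under the minimum, Nduf genes named in the study, list genes past the threshold, and copies past the minimum. Other members named were chosen after their values were seen. The values of 1 tested member, which is part of the counts and medians, are not reported here. Replicates were separate mice. For groups of 3, the smallest p of an exact permutation test would be 0.1. The code was tested on simulated data.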

Additional observations from a re-analysis of the deposited data

Results flagged for a closer look

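The genotype effects of 2 members were flagged as differing between the strains, 1 by a test of the difference with DESeq2 alone and 1 by the order of the mice. For Ndufa3 the interaction (C57 minus OF1) passed with DESeq2 at an adjusted p of 0.049, and not with edgeR, at an adjusted p of 0.691. The DESeq2 call was kept in 3 of 12 fits that each left out a mouse, and was lost with the length trend removed (adjusted p = 0.538). For Ndufa5 every OF1-En1+/- mouse was below every OF1 WT mouse and every C57-En1+/- mouse was above every C57 WT mouse. The margins were narrow, with 8148 counts in SW21 against 8193 in SW31, and 7075 in C575 against 6812 in C5743. The interaction of Ndufa5 was 1.00 on the log2 scale, with an unadjusted p of 0.00875 and an adjusted p of 0.691 with edgeR, so the difference did not pass the test. It was 1 such member of 47 (0.233% of all genes), while for 16 members the OF1 groups overlapped and the C57-En1+/- mice were all higher (5.52% of all genes), and for 30 both pairs of groups overlapped (72.0%).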

How the results depend on the processing

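For the strains averaged over genotypes the median of the members was 0.09 with all mice and -0.01 without C575. For OF1-En1+/- over OF1 WT it was -0.16 with all mice and reached 0.0 among the alternatives. In the other comparisons the median kept its sign under every alternative. The mean log2 level of the members had a pooled SD of 0.26 between mice of a group, which is not the spread of a median fold change. No member was called by edgeR under any alternative. DESeq2 called 1 member in C57-En1+/- over C57 WT, 1 in OF1 WT over C57 WT and 1 for the interaction. With the length trend removed these 3 calls were lost, and it called 2 for the strains averaged over genotypes (Ndufs6, adjusted p = 0.0259, and Ndufaf1, adjusted p = 0.0457), where it called 3.93% of all genes. Without C575 DESeq2 called 26, 5 and 7 members in C57-En1+/- over C57 WT, OF1 WT over C57 WT and the interaction, where it called 3.07, 2.67 and 0.695% of all genes, and without C572 it called 0, 5 and 0 (0.0611, 2.77 and 0.161% of all genes). With the length trend removed the median in C57-En1+/- over C57 WT mice was 0.25 with edgeR and 0.31 with DESeq2, in OF1 WT over C57 WT mice 0.20 with edgeR, and for the interaction 0.24 with edgeR and 0.28 with DESeq2. The interaction was 0.52 without SW22 and C572S. Leaving out each library in turn, the median ranged from -0.31 to -0.00 for OF1-En1+/- over OF1 WT, 0.47 to 0.78 for C57-En1+/- over C57 WT, 0.39 to 0.60 for OF1 WT over C57 WT, -0.48 to -0.14 for OF1-En1+/- over C57-En1+/-, -0.01 to 0.18 and 0.14 to 0.29 for strain and genotype averaged, and 0.60 to 1.00 for the interaction, with 0 edgeR calls. The cause was not tested. Ndufa4l2 had the fewest reads of the tested members, with 18.9 to 120 normalized counts in a library. No paired analysis was possible because the labels give no replicate numbers, and those used here follow accession order.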
